A study of Mus musculus with 6 samples.

Results

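CD8 T cells carrying at least 1 transcript of an inhibitory checkpoint receptor were described in orthotopic mouse pancreatic tumours. They numbered 1541 of 47794 cell barcodes in 6 single-cell RNA libraries. A barcode was taken as a T cell when Cd3d, Cd3e, Cd3g, Trac and Trbc2 together gave at least 3 unique molecular identifiers (UMIs, each standing for 1 captured transcript), C1qa, C1qb and C1qc together gave at most 3, and ribosomal protein genes made up at least 12% of its UMIs. Among these 6060 T cells, 3082 had at least 1 UMI of Cd8a or Cd8b1 and none of Foxp3, the regulatory T cell factor. The members were chosen by the measured UMIs of 4 receptors: of these CD8 cells, 1541 had at least 1 UMI of Pdcd1, Lag3, Havcr2 or Tigit (checkpoint-positive) and the other 1541 had none of the 4 (checkpoint-negative). The equal numbers arose over the libraries as a whole and not within each of them. Just inside the rule stood 637 checkpoint-positive cells with 1 receptor UMI, against 904 with at least 2, so many members were separated from the checkpoint-negative cells by a single molecule.

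The tumours came from wild-type C57BL/6J mice that carried cells of KPC, a mouse pancreatic cancer line, in the pancreas, and were taken on day 11 after inoculation. The mice received either #44-anti-mVSIG4, an antibody to mouse VSIG4, or IgG, with 3 mice and 3 libraries in each group. VSIG4 is a complement receptor and inhibitory ligand of tissue macrophages. The labels state no age, sex, dose or schedule. Each library is treated as 1 mouse, so p-values of the treatment tests measure the spread between mice. In tests that compare the states, with library as a block, they measure how the within-library difference varies between mice.

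Checkpoint receptors are switched on when a T cell is stimulated through its antigen receptor, and they restrain the same signal. A recently activated CD8 cell carries them for a while, whereas a cell that meets antigen without end keeps several of them together, gains the factor Tox and loses the progenitor factor Tcf7, a state known as exhaustion. A checkpoint transcript alone therefore does not separate activation from exhaustion. Pdcd1 encodes PD-1, the receptor for PD-L1. Lag3 encodes a receptor that binds MHC class II, Havcr2 encodes TIM-3, which is also made by myeloid cells, and Tigit encodes a receptor for the poliovirus receptor family.

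The rule gave 223, 322 and 100 checkpoint-positive cells in anti-VSIG4 libraries 1, 2 and 3, against 164, 178 and 554 in IgG libraries 1, 2 and 3. The libraries held 26606234 to 47221033 UMIs, and the summed checkpoint-positive cells held 575810 to 4178934. IgG 3 stood apart. In that library 48.6% of all barcodes drew over 15% of their UMIs from genes longer than 100 kb, a mark of nuclear RNA, against 0.651% to 21.9% in the other 5. Of its 554 checkpoint-positive cells, 200 were above this 15%, against 0, 1 and 7 in the anti-VSIG4 libraries and 0 and 21 in IgG 1 and IgG 2. Of its 278 checkpoint-negative cells, 67 were above it. Over all libraries 229 checkpoint-positive and 91 checkpoint-negative cells were above it, so this mark moved with the state as well. A further 490 barcodes met every other condition and missed the 12% ribosomal share, and 432 of them were in IgG 3. IgG 3 supplied 554 of the 896 checkpoint-positive cells of the IgG group, so the results that rest on it are given with and without it.

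The label was checked on genes of the gate and of other cells. The genes of the gate were high as the rule requires. Cd8a averaged 492 ± 76.4 CPM (UMIs of a gene per 1000000 UMIs of the summed cells) in checkpoint-positive cells and 423 ± 107 CPM in checkpoint-negative cells, and Cd8b1 averaged 838 ± 110.4 and 844 ± 151 CPM in the same order of states (SD, n = 6 libraries). B cell and natural killer cell lists were low in checkpoint-positive cells, at most 14.1 and 33.0 CPM summed over their genes, and Ncr1, the defining natural killer receptor, was at 0 in 4 of the 6 libraries. At least 1 Cd4 UMI was found in 89 checkpoint-positive cells (5.78%), so the population was not purely CD8 single-positive by transcript. Transcripts of other cells were also present. The 5 neutrophil markers summed to 1959, 1574 and 389 CPM in checkpoint-positive cells with anti-VSIG4 and to 2041, 472 and 221 CPM with IgG, with overlap, and to 237 to 2309 CPM in checkpoint-negative cells. Dendritic cell markers summed to 274 to 758 CPM in checkpoint-positive cells, fibroblast markers to 76.4 to 524 CPM, acinar markers to 52.1 to 243 CPM and endothelial markers to 16.2 to 37.3 CPM. Values of the tumour, macrophage and red cell lists stand beside the genes they moved with. No doublet caller was run. An alternative left out the cells above the 94th percentile of UMIs in each library.

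Checkpoint-positive cells were deeper than checkpoint-negative cells in all 6 libraries. Their median UMIs were 3826, 3389.5 and 4851.5 in the anti-VSIG4 libraries and 3053, 4458.5 and 5252 in the IgG libraries. The medians of checkpoint-negative cells were 2710.5, 2614 and 3633 and then 2271.5, 3261 and 3663 in the same libraries. A cell with more molecules is more likely to show 1 of a rare receptor, so depth moves with every contrast between the states. Differences after thinning each cell to 1000 UMIs, and in cells of 1500 to 4000 UMIs, are therefore given for the genes that the results turn on. In the thinned fits the receptors were called again, so checkpoint-positive cells left without a receptor UMI counted as checkpoint-negative. The parts of depth and of the new calls cannot be told apart there. The window of 1500 to 4000 UMIs kept 31 to 182 checkpoint-positive and 75 to 318 checkpoint-negative cells per library. In it, checkpoint-positive cells still had higher median UMIs in every library but IgG 3. Fewer cells and closer depth cannot be told apart there.

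Pdcd1 was the receptor that most members carried. It was found in 1199 of the 1541 checkpoint-positive cells (77.8%), Lag3 in 462 (30.0%), Havcr2 in 289 (18.8%) and Tigit in 204 (13.2%). The most frequent pattern was Pdcd1 alone, in 755 cells (49.0%), followed by Pdcd1 with Lag3 in 175 (11.4%), Lag3 alone in 154 (9.99%) and Pdcd1 with Havcr2 in 101 (6.55%). Pdcd1, Lag3 and Havcr2 together marked 57 cells. These values follow from the rule and carry no test.

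In level, Pdcd1 was the highest of the receptors in every library. It stood at 399.8, 319 and 382 CPM in checkpoint-positive cells of the anti-VSIG4 libraries and at 347, 356 and 361 CPM in those of the IgG libraries, so the groups overlapped. Lag3 stood at 116, 107 and 34.7 CPM with anti-VSIG4 and at 132, 118 and 64.8 CPM with IgG. Havcr2 stood at 31.3, 22.7 and 46.9 CPM with anti-VSIG4 and at 27.9, 42.4 and 84.5 CPM with IgG. Lag3 was lowest in anti-VSIG4 3, while Havcr2 was highest in IgG 3. Tigit was highest in anti-VSIG4 1, stood at 26.6 and 24.3 CPM in anti-VSIG4 2 and 3, and at 31.0, 30.1 and 27.0 CPM with IgG, with overlap. No single cell held more than 23 UMIs of Pdcd1, 9 of Havcr2, 8 of Lag3 or 3 of Tigit.

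A single receptor was detected in 1053 checkpoint-positive cells (68.3%), 2 receptors in 377 (24.5%), 3 in 97 (6.29%) and all 4 in 14 (0.909%). Of the 14 cells with all 4, 13 were in IgG 3 and 1 in anti-VSIG4 1. The share with a single receptor was 72.2%, 78.9% and 74.0% with anti-VSIG4 and 78.7%, 68.5% and 56.5% with IgG, lowest in IgG 3. Median UMIs per cell climbed with the number of receptors, at 3618, 5099, 7997 and 12772.5 for 1, 2, 3 and 4, and the part of depth in this count was not tested.

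Free RNA in the droplets can give such shares in cells that do not express a gene. Neutrophils, in which Pdcd1, Lag3 and Tigit are not expected, had a Pdcd1 UMI in 1.41% of 5461 cells, Lag3 in 1.01% and Tigit in 0.714%, at a median of 1993 UMIs. All 3082 CD8 cells had Pdcd1 in 38.9%, Lag3 in 15% and Tigit in 6.62%, at a median of 3386.5 UMIs. Havcr2 was different, with 7.03% of neutrophils and 15.1% of 8456 macrophages (median 5346 UMIs) carrying a UMI, against 9.38% of CD8 cells. In anti-VSIG4 1, anti-VSIG4 2 and IgG 1 the CD8 share with Havcr2 was 4.61%, 3.17% and 3.97%, below the neutrophil share of the same libraries, so no expression is read from it; whether the neutrophil UMIs are free RNA or their own was not tested. The Havcr2 calls outside IgG 3 are therefore the least secure of the 4. Over all libraries 74 cells entered the rule through Havcr2 alone, 42 of them in IgG 3.

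**Figure D1:**
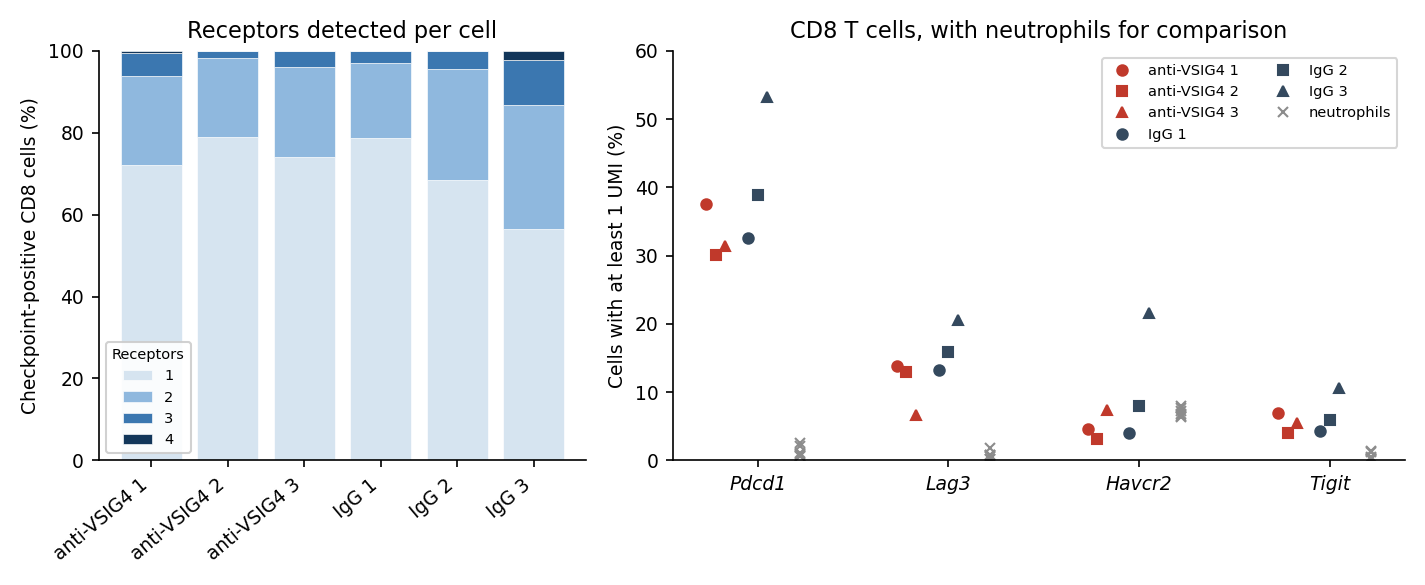
Left, the share of checkpoint-positive CD8 cells with 1, 2, 3 or 4 of the receptors, as stacked bars that add to 100% in each of the 6 libraries. Right, the percent of CD8 T cells with at least 1 UMI of Pdcd1, Lag3, Havcr2 or Tigit in each library, with grey crosses for neutrophils of the same libraries; Pdcd1 stands far above its crosses and Havcr2 is clearly above them in IgG 3 alone.

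The design asks whether the antibody changed how many CD8 cells carried a receptor. Anti-VSIG4 tumours averaged a lower checkpoint-positive share of CD8 cells than IgG tumours, and the exact permutation test did not separate the groups. The share was 46.8% (95% exact binomial interval 42.2% to 51.3%), 40.9% (37.4% to 44.4%) and 39.2% (33.2% to 45.5%) in anti-VSIG4 libraries 1 to 3. It was 43.4% (38.3% to 48.6%), 50.6% (45.2% to 55.9%) and 66.6% (63.3% to 69.8%) in IgG libraries 1 to 3, and the intervals cover counting error only. The groups overlapped, since anti-VSIG4 1 was above IgG 1, and IgG 3 was the highest by a wide margin.

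The means were 42.3% ± 3.96 with anti-VSIG4 and 53.5% ± 11.9 with IgG (SD, n = 3 each), a difference of -11.2 percentage points (two-sided exact permutation p = 0.2, adjusted p = 0.467 over 7 shares). The smallest p this design allows is 0.1. Without IgG 3 the IgG mean was 47.0% ± 5.08 and the difference -4.70 points (exact permutation p = 0.4, smallest possible 0.2). After thinning, with the CD8 genes, Foxp3 and the receptors called again, the shares were 26.5%, 18.5% and 17.5% with anti-VSIG4 and 22.5%, 23.0% and 34.7% with IgG (exact permutation p = 0.3).

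The libraries also split by how many nucleus-like barcodes they held. Among those with few, anti-VSIG4 1 and 2 averaged 43.8% and IgG 1 stood at 43.4%. Among those with many, anti-VSIG4 3 stood at 39.2%, while IgG 2 and 3 averaged 58.6%. The treatments differed little in the first kind and by more in the second, and each kind held too few libraries for a test.

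Each receptor averaged a lower share with anti-VSIG4. The exact permutation p was 0.2 or above for each, in a design that cannot go below 0.1, so a lack of difference is not shown. Pdcd1 was detected in 37.5%, 30.1% and 31.4% of CD8 cells with anti-VSIG4 and in 32.5%, 38.9% and 53.2% with IgG (means 33.0% ± 3.98 and 41.6% ± 10.6, SD, n = 3 each, exact permutation p = 0.2). Lag3 was detected in 13.8%, 12.9% and 6.67% with anti-VSIG4 and in 13.2%, 15.9% and 20.6% with IgG (11.1% ± 3.91 and 16.6% ± 3.71, exact permutation p = 0.2). Groups overlapped for both genes, and without IgG 3 the differences shrank to -2.74 points for Pdcd1 and -3.42 points for Lag3, against -8.58 and -5.41 points with it. Havcr2 averaged 5.08% ± 2.18 with anti-VSIG4 and 11.2% ± 9.27 with IgG, an exact permutation p of 0.4, and the IgG mean was 5.96% without IgG 3 (difference -0.88 points, against -6.11 points with it). Tigit averaged 5.49% ± 1.43 with anti-VSIG4 and 6.93% ± 3.28 with IgG, an exact permutation p of 0.6, and without IgG 3 its difference changed sign (0.390 points). As a share of all T cells, checkpoint-positive CD8 cells made up 20.9%, 21.6% and 17.8% with anti-VSIG4 and 16.7%, 28.2% and 41.8% with IgG (exact permutation p = 0.4). The difference was -8.81 points with IgG 3 and -2.34 points without it.

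**Figure D2:**
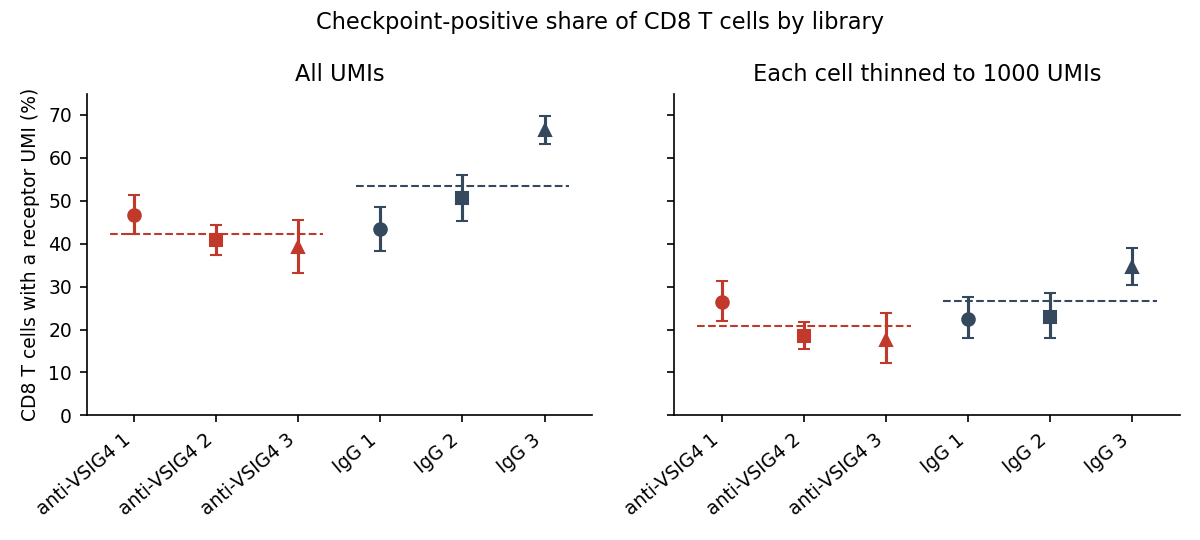
Percent of CD8 T cells that were checkpoint-positive in each library, with all UMIs (left) and after thinning each cell to 1000 UMIs (right); points are libraries with 95% exact binomial intervals, dashed lines are group means. IgG 3 is highest in both panels, and the other 5 libraries lie between 39.2% and 50.6% on the left.

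To ask what else the checkpoint-positive cells expressed, UMIs were summed over the cells of each state in each library and the 2 states were compared within libraries. In such sums, fewer cells expressing a gene and less RNA per cell cannot be told apart. At a false discovery rate under 0.05 (edgeR quasi-likelihood test with Benjamini-Hochberg adjustment, library as a block), 82 of 6770 genes were higher (1.21%) and 91 lower (1.34%) in checkpoint-positive cells, 173 in all (2.56%). The genes of the gate were left out. Independent of any model, 349 genes (5.16%) were higher and 188 (2.78%) lower in checkpoint-positive cells of all 6 libraries. Of the gene lists, proliferation had the most calls on the higher side (9 of 30) and early response the most on the lower side (13 of 23). Without IgG 3, 84 genes were called, 73 of them among the 173, and 42 of the 173 were called in each of the 6 fits that left out 1 library.

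Rgs16, which encodes a regulator that shortens signalling from chemokine receptors, had the smallest p on the higher side. It stood at 175, 67.3 and 102 CPM in checkpoint-positive cells of the anti-VSIG4 libraries and at 68.1, 249.9 and 516 CPM in those of the IgG libraries. Its level in checkpoint-negative cells was 44.2, 21.8 and 45.1 CPM with anti-VSIG4 and 12.2, 51.4 and 144 CPM with IgG. Checkpoint-positive cells were higher in all 6 libraries, and IgG 3 was the highest in both states. The means were 196 ± 172 and 53.1 ± 46.9 CPM (SD, n = 6), a log2 difference of 1.80 (SE 0.14, edgeR adjusted p = 5.04e-10). The call was kept in every fit without 1 library, after thinning (log2 1.28) and in cells of 1500 to 4000 UMIs (log2 1.53).

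Of 17 costimulation genes tested, Tnfrsf4, Tnfrsf18 and Il2rb were called higher and none lower, against 1.21% of all genes called higher. Of the 17, 9 leaned higher and 8 lower, and the median difference was 0.04 against -0.001 over all genes tested. The Tnfrsf genes among them encode receptors that sustain T cell survival and division after activation. Tnfrsf4, which encodes OX40, stood at 156, 97.0, 62.5, 141, 139 and 186 CPM in checkpoint-positive cells of anti-VSIG4 1 to 3 and IgG 1 to 3. The checkpoint-negative cells had 46.8, 58.3, 15.6, 83.6, 30.2 and 44.9 CPM in the same libraries. It was higher in all 6, by 1.46 on the log2 scale (SE 0.18, edgeR adjusted p = 9.25e-05). After thinning the difference was 0.76 and in cells of 1500 to 4000 UMIs 0.60, and it passed in neither.

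Tnfrsf18, which encodes GITR, averaged 308 ± 50.8 CPM in checkpoint-positive cells and 202 ± 43.8 CPM in checkpoint-negative cells, and the lowest library of the first (255 CPM) was above the highest of the second (244 CPM) (log2 0.57, SE 0.11, edgeR adjusted p = 0.0047). Its difference was 0.22 after thinning and 0.20 in cells of 1500 to 4000 UMIs, and it passed in neither. Tnfrsf9, which encodes 4-1BB, a receptor that rises on antigen stimulation, ranged from 165 to 580.3 CPM (median 306) and from 37.8 to 179 CPM (median 111) in the same order of states. It was higher in 6 of 6 libraries but did not pass (log2 1.56, SE 0.30, edgeR adjusted p = 0.0724). Il2rb, the beta chain of the interleukin receptors for IL-2 and IL-15, averaged 374 ± 40.5 and 277 ± 71.0 CPM (log2 0.42, adjusted p = 0.0285). Its call was lost without anti-VSIG4 1, anti-VSIG4 3, IgG 2 or IgG 3 and kept after thinning (0.49). Over all fits the log2 difference of Il2rb ran from 0.26 to 0.52, with adjusted p (edgeR or DESeq2) up to 0.575. Of the 173 calls between the states, 2 were kept in cells of 1500 to 4000 UMIs.

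Of the factors linked to exhaustion, Tox and Rbpj were called higher in checkpoint-positive cells. Tox, the factor that installs the exhausted state, stood at 32.4, 29.0 and 24.3 CPM in checkpoint-positive cells with anti-VSIG4 and at 46.4, 69.2 and 143 CPM with IgG. Checkpoint-negative cells had 19.5, 27.4 and 23.3 CPM with anti-VSIG4 and 33.1, 31.8 and 48.7 CPM with IgG. It was higher in 6 of 6 libraries, by little in anti-VSIG4 2 and 3 and by the most in IgG 3. The log2 difference was 0.76 (SE 0.19, edgeR adjusted p = 0.0266), and the call was lost without IgG 3 (0.47, adjusted p = 0.396), IgG 2 or anti-VSIG4 1. It was also lost after thinning (0.77, adjusted p = 0.140) and in cells of 1500 to 4000 UMIs (0.70). Tox is a long gene, and over cells with at most 15% of UMIs in long genes, an alternative chosen after seeing the data, the difference was 0.35 (adjusted p = 0.494).

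Rbpj, the DNA-binding partner of Notch signalling, averaged 169 ± 100.3 CPM in checkpoint-positive cells and 83.7 ± 26.6 CPM in checkpoint-negative cells (log2 0.87, SE 0.19, edgeR adjusted p = 0.0254). Its call was lost without anti-VSIG4 1 or IgG 3, after thinning (0.40) and in the window of 1500 to 4000 UMIs (0.68). Ikzf2, which encodes the factor Helios, averaged 138 ± 115 and 68.3 ± 48.7 CPM and was higher in 6 of 6 libraries without passing (adjusted p = 0.162). Of 16 exhaustion-related factors tested, 2 were called higher, against 1.21% of all genes, and 13 leaned higher (median 0.20). Without IgG 3, none was called higher and 1 lower of 14. Among 11 other inhibitory receptors none was called in either direction. Ctla4 averaged 142 ± 39.2 CPM in checkpoint-positive cells and 122 ± 49.3 CPM in checkpoint-negative cells (log2 0.24, adjusted p = 0.458).

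Of 14 progenitor and memory genes tested, 4 were called lower and none higher, against 1.34% of all genes called lower. Of the 14, 10 leaned lower and the median was -0.17, against -0.001 over all genes. Klf2, a factor that keeps T cells able to leave tissue, stood at 192, 157 and 139 CPM in checkpoint-positive cells with anti-VSIG4 and at 118, 113 and 87.8 CPM with IgG. Its checkpoint-negative levels were 371, 219 and 236 CPM with anti-VSIG4 and 171, 198 and 189.8 CPM with IgG. It was lower in 6 of 6 libraries (log2 -0.84, SE 0.11, edgeR adjusted p = 2.26e-05), and the call was kept in every fit without 1 library and after thinning (-0.72). It was lost in cells of 1500 to 4000 UMIs (-0.50, adjusted p = 0.203). Klf3, a repressor of the same family, fell to 58.2 ± 22.8 CPM in checkpoint-positive cells, against 107 ± 21.8 CPM in checkpoint-negative cells (log2 -1.03, SE 0.15, edgeR adjusted p = 0.000131), but did not pass after thinning (-0.90) or in cells of 1500 to 4000 UMIs (-0.62).

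Tcf7, which encodes TCF1, the factor of progenitor CD8 cells, stood at 37.8, 50.9 and 83.4 CPM in checkpoint-positive cells with anti-VSIG4 and at 77.4, 37.9 and 16.5 CPM with IgG. In checkpoint-negative cells it stood at 79.3, 80.8 and 98.0 CPM with anti-VSIG4 and at 88.9, 52.9 and 48.7 CPM with IgG. All 6 libraries were lower, IgG 3 lowest in both states (log2 -0.78, SE 0.17, edgeR adjusted p = 0.00821; adjusted p = 0.0529 without anti-VSIG4 1). After thinning its difference was -0.32 and in cells of 1500 to 4000 UMIs -0.62, and neither passed. S1pr1, the receptor that leads T cells out of tissue under Klf2 control, was lower in 5 of 6 libraries (log2 -0.74, adjusted p = 0.0438), and Id3, a memory factor, was also lower in 5 of 6 (-1.29, adjusted p = 0.0325). Both calls were lost in at least 4 of the 6 fits without 1 library. Slamf6, another progenitor marker, averaged 17.3 ± 4.36 CPM in checkpoint-positive cells and 14.0 ± 3.95 CPM in checkpoint-negative cells (adjusted p = 0.801).

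Of 12 cytotoxic genes tested, 3 were called higher and none lower (median 0.18), against 1.21% of all genes called higher. After thinning none of 10 was called (median 0.00). Prf1, which encodes perforin, ranged from 72.0 to 165 CPM (median 94.8) in checkpoint-positive cells and from 49.4 to 85.6 CPM (median 60.2) in checkpoint-negative cells. It was higher in 6 of 6 libraries (log2 0.65, SE 0.15, edgeR adjusted p = 0.0161), but the call was lost without anti-VSIG4 1, IgG 2 or IgG 3, and the sign turned after thinning (-0.196). Serpinb6b and Serpinb9, inhibitors that shield a killer cell from its own granule proteases, were called higher (0.51 and 0.52; adjusted p = 0.0129 and 0.0458). The first call was lost without IgG 2 and the second in 5 of the 6 such fits. Gzmb, which encodes granzyme B, averaged 449.7 ± 126 CPM in checkpoint-positive cells and 351 ± 102 CPM in checkpoint-negative cells, higher in 4 of 6 libraries (adjusted p = 0.262).

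Ccl5, a chemokine that memory and effector CD8 cells hold ready, went the other way. It ranged from 2970.1 to 7801 CPM (median 6168) in checkpoint-positive cells and from 4819 to 9103 CPM (median 7737) in checkpoint-negative cells. All 6 libraries were lower (log2 -0.42, SE 0.06, edgeR adjusted p = 0.000423), and the call was kept in every fit without 1 library. It was lost after thinning (-0.19, adjusted p = 0.0628), in cells of 1500 to 4000 UMIs (-0.072, adjusted p = 0.932), without cells above the 94th percentile of UMIs (-0.31) and with at least 2 Cd8a or Cd8b1 UMIs and no Cd4 (-0.49). Ifng, the interferon that effector cells release on stimulation, averaged 42.3 ± 25.3 CPM in checkpoint-positive cells and 17.7 ± 9.26 CPM in checkpoint-negative cells and was higher in 5 of 6 libraries (log2 1.13, adjusted p = 0.0951). Cxcr6, the receptor that holds CD8 cells near CXCL16-making myeloid cells, averaged 187 ± 59.5 and 129 ± 37.1 CPM in the same order of states and was higher in 6 of 6 (log2 0.50, SE 0.11, adjusted p = 0.0089; lost without anti-VSIG4 1). After thinning it was 0.54 and in cells of 1500 to 4000 UMIs 0.50, passing in neither. Of 14 homing and residency genes, Cxcr6 and Rgs16 were called higher and none lower (median -0.05), against 1.21% of all genes called higher.

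**Figure D3:**
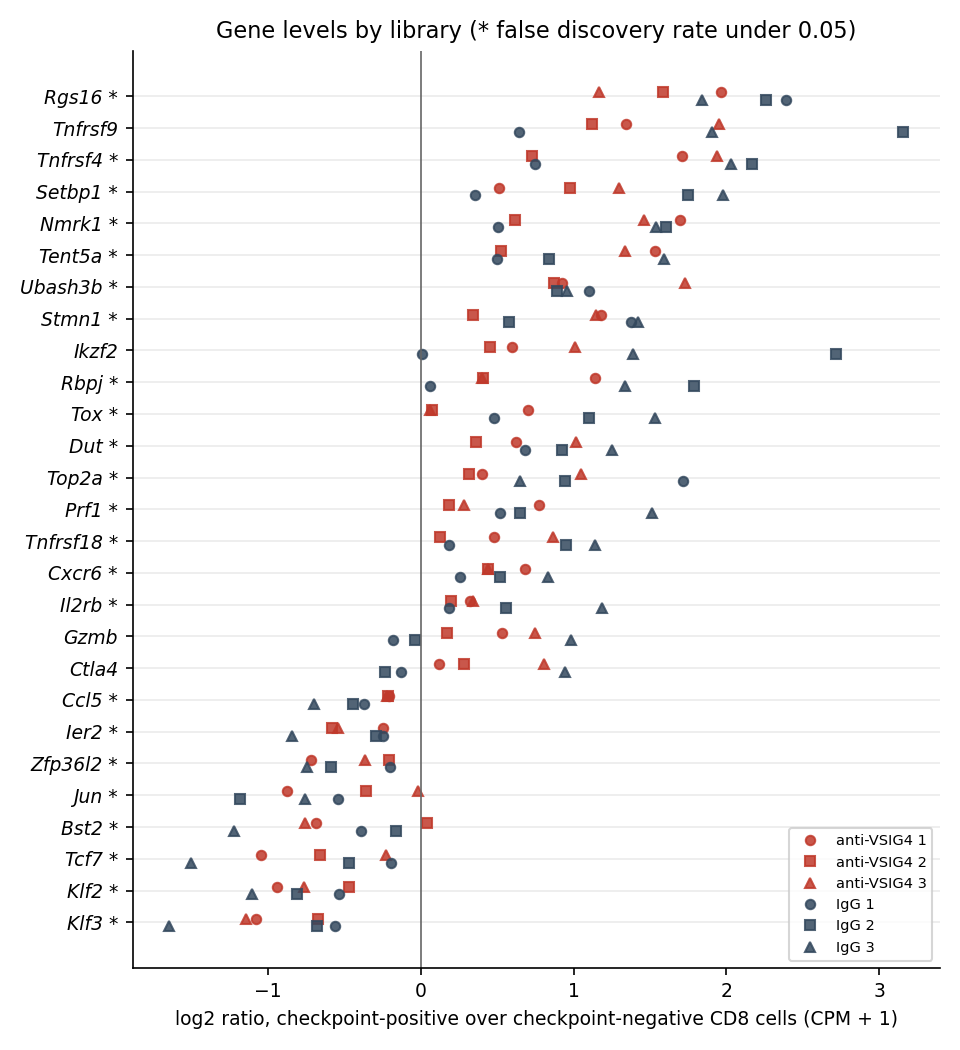
Log2 ratio of checkpoint-positive over checkpoint-negative CD8 cells (CPM + 1) for 27 genes, 1 point per library, with an asterisk where the edgeR false discovery rate was under 0.05. Rgs16 and Tnfrsf4 lie right of 0 and Klf2, Klf3 and Ccl5 left of 0 in all 6 libraries.

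All 30 proliferation genes tested leaned higher in checkpoint-positive cells, 9 were called and the median difference was 0.56, against 1.21% of all genes called higher and a median of -0.001. Stmn1, a microtubule regulator of dividing cells, averaged 203 ± 59.4 CPM in checkpoint-positive cells and 104 ± 43.2 CPM in checkpoint-negative cells (log2 0.94, SE 0.13, edgeR adjusted p = 0.000165). Dut, which clears dUTP before DNA synthesis, Tuba1b, a tubulin, and Top2a, the topoisomerase of dividing cells, were also called (0.76, 0.53 and 0.73). All 4 calls were kept in every fit without 1 library, and without IgG 3 the list kept 5 calls of 27 and a median of 0.42.

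Depth moved with this list. After thinning, with the receptors called again, 10 of its genes could be tested. None was called, 5 leaned each way and the median was 0.01. In cells of 1500 to 4000 UMIs 12 could be tested, none was called and the median was 0.17. For the shares that follow, the states were kept as first called. The thinned share of cells with a UMI of Mki67, Top2a or Stmn1 was 12.1%, 14.0% and 5% in checkpoint-positive cells with anti-VSIG4 and 15.2%, 13.5% and 30.1% with IgG. In checkpoint-negative cells it was 9.84%, 12.9% and 5.16% with anti-VSIG4 and 6.54%, 9.20% and 17.6% with IgG. The share was higher in checkpoint-positive cells of 5 of 6 libraries, most in the IgG libraries. Without thinning it was 26.9%, 23.6%, 26%, 28.7%, 32.6% and 57.8% in checkpoint-positive cells and 18.5%, 21.2%, 16.1%, 13.6%, 14.9% and 34.2% in checkpoint-negative cells, in the same order of libraries. Depth differed in the same direction between the states, and its part in the result was not tested beyond this.

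Immediate early and stress genes, which switch on within minutes of stimulation or stress, leaned lower in checkpoint-positive cells in all 23 of the genes tested, and 13 were called (median -0.45), against 1.34% of all genes called lower. Jun, a subunit of the factor AP-1, averaged 158 ± 98.7 CPM in checkpoint-positive cells and 265 ± 205 CPM in checkpoint-negative cells and was lower in 6 of 6 libraries (log2 -0.72, SE 0.12, edgeR adjusted p = 0.000977; after thinning -0.36 and not passing). Zfp36l2, which encodes a protein that destabilises messenger RNA, and Ier2, an immediate early gene, were lower in 6 of 6 (log2 -0.55 and -0.54). Hspa1b, a heat shock gene, averaged 122 ± 117 and 196 ± 234 CPM, and its call was lost without IgG 2. After thinning the median of the 23 was -0.25, 20 leaned lower and none was called.

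Type I interferon response genes leaned the same way, 26 lower and 2 higher of 28 (median -0.33). Of the 28, 5 were called lower, against 1.34% of all genes. Bst2, which tethers budding virus, averaged 146 ± 30.2 CPM in checkpoint-positive cells and 209 ± 35.7 CPM in checkpoint-negative cells, lower in 5 of 6 libraries (log2 -0.60, SE 0.14, edgeR adjusted p = 0.0203). Slfn1, Irf7 and Rsad2, all induced by interferon, were lower in 6 of 6 (-0.53, -0.60 and -0.95). Without IgG 3, 2 of 26 were called, and after thinning none of 14 was called (median -0.22). Among 21 interferon-gamma response genes, 1 was called lower, namely Socs3 (-0.45, adjusted p = 0.0457). No gene was called among 20 of antigen receptor signalling, 16 of glycolysis, 15 of mitochondrial respiration and 7 natural killer receptors.

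Genes with the largest differences that stood in none of these lists included Setbp1, Tmem163, Gtdc1, Nmrk1, Tent5a and Ubash3b on the higher side. Nmrk1, a kinase of nicotinamide riboside, ranged from 24.3 to 70.8 CPM (median 46.1) in checkpoint-positive cells and from 13.0 to 23.7 CPM (median 17.8) in checkpoint-negative cells, so the states did not overlap (log2 1.25, SE 0.20, edgeR adjusted p = 0.000448). Ubash3b, a phosphatase that dampens antigen receptor signals, ranged from 53.8 to 114 CPM (median 66.2) and from 15.6 to 58.4 CPM (median 35.5) (log2 0.98, adjusted p = 0.000286; after thinning 0.40 and not passing). Tent5a, a poly(A) polymerase, averaged 79.5 ± 37.3 and 35.5 ± 7.92 CPM (1.08, adjusted p = 0.000286; after thinning 1.31 and passing). Over all fits the log2 difference of Tent5a ran from 0.77 to 1.41, with adjusted p (edgeR or DESeq2) up to 0.253. Setbp1, Tmem163 and Gtdc1 were called in every fit without 1 library (1.33, 1.16 and 1.17), with their highest values in IgG 3. Phlpp1, a phosphatase of the kinase AKT, lost its call without anti-VSIG4 1, anti-VSIG4 3 or IgG 3. Cenpm and Tubg1, a centromere protein and a gamma-tubulin, were called higher but lost the call in 4 of the 6 fits without 1 library.

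Cd4 was also higher in checkpoint-positive cells, at 18.4, 38.3 and 31.3 CPM with anti-VSIG4 and 69.6, 22.3 and 31.8 CPM with IgG. In checkpoint-negative cells it stood at 10.4, 16.2 and 7.78 CPM with anti-VSIG4 and at 20.9, 9.07 and 10.3 CPM with IgG (log2 1.40, SE 0.22, edgeR adjusted p = 0.000356). All 6 libraries were higher, IgG 1 the most in level. Conventional CD4 cells of the same libraries carried Pdcd1 in 39.1% and Lag3 in 24.8% of 957 cells. Of the regulatory T cell list, the summed level without Foxp3, which the rule sets to 0, was 203 to 570 CPM in checkpoint-positive cells and 123 to 329 CPM in checkpoint-negative cells. When cells needed at least 2 Cd8a or Cd8b1 UMIs and no Cd4, 92 genes were called; the part of CD4 cells in the other results was not tested beyond this.

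Several of the largest differences on the lower side were in genes known from epithelial cells. Krt18, a keratin, stood at 42.1, 25.8 and 10.4 CPM in checkpoint-positive cells with anti-VSIG4 and at 82.0, 37.9 and 259 CPM with IgG. In checkpoint-negative cells it stood at 121, 51.3 and 15.6 CPM with anti-VSIG4 and at 120.2, 139 and 1395 CPM with IgG. All 6 libraries were lower and IgG 3 was highest in both states (log2 -1.64, SE 0.30, edgeR adjusted p = 0.0387). The call was lost without anti-VSIG4 1, anti-VSIG4 3 or IgG 2, and after thinning the difference was -0.70. Muc1, an epithelial mucin, and Tnfrsf12a, the receptor for TWEAK, were also lower (log2 -1.40 and -1.39), and leaving out IgG 3 ended the call of each (adjusted p = 0.151 and 0.089). Tsc22d1 and Aldh2 likewise lost their calls without IgG 3 alone, while S100a16, Rflnb, Hid1, Ccnd1, Rbpms and Cxcl1 lost theirs without IgG 3 and without other libraries. The 5 tumour markers summed to 168, 108, 57.3, 243, 149 and 931 CPM in checkpoint-positive cells, against 481, 167, 74.7, 254, 413 and 5328 CPM in checkpoint-negative cells of the same libraries. Their part in these differences was not tested.

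The number of receptors per cell gave a finer scale, on which 0 stands for checkpoint-negative cells. It is a description with no test, since the rule counts the same receptors and depth climbs along it. Tnfrsf9 increased from 0 to 1 to 2 receptors in all 6 libraries, for example at 92.8, 157 and 316 CPM in anti-VSIG4 2 and at 37.8, 227 and 532 CPM in IgG 2. Rgs16 did so in 5 libraries, with 44.2, 83.7 and 376 CPM in anti-VSIG4 1 and 144, 403 and 592 CPM in IgG 3, and stood at 12.2, 46.4 and 29.1 CPM in IgG 1. Tcf7 was lower with 2 receptors than with none in all 6, at 79.3, 45.1 and 22.9 CPM in anti-VSIG4 1 and at 48.7, 26.6 and 11.3 CPM in IgG 3.

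The proliferation list did not follow this scale in every library. With 0, 1 and 2 receptors it summed to 2340.1, 2597 and 4656 CPM in anti-VSIG4 1 and to 3341, 4833 and 6211 CPM in IgG 3. In anti-VSIG4 3, IgG 1 and IgG 2 it was lower with 2 receptors than with 1. Cells with 3 or 4 receptors numbered 14, 6 and 4 with anti-VSIG4 and 5, 8 and 74 with IgG, too few outside IgG 3 for a comparison.

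**Figure D4:**
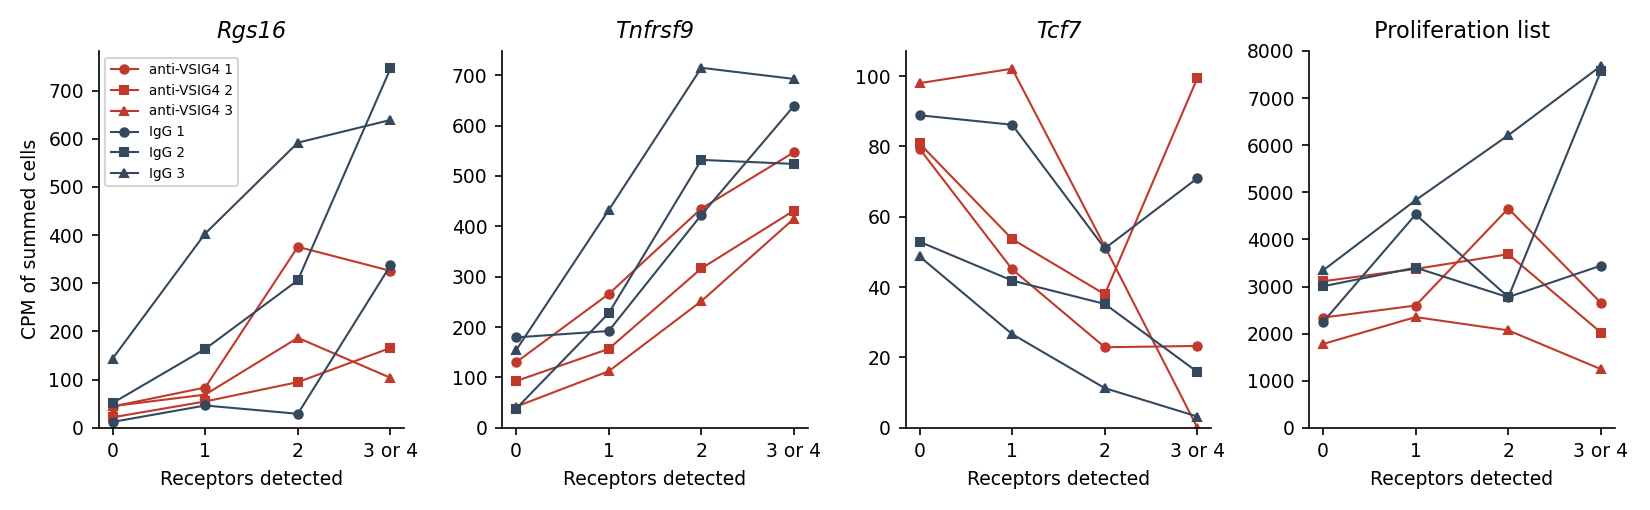
CPM of Rgs16, Tnfrsf9, Tcf7 and the summed proliferation list in CD8 cells with 0, 1, 2 and 3 or 4 receptors, 1 line per library. Tnfrsf9 climbs from 0 to 2 receptors in all 6 libraries, Tcf7 is lower at 2 than at 0 in all 6, and the last point rests on 4 to 74 cells.

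The second comparison set anti-VSIG4 against IgG within checkpoint-positive cells. No gene passed a false discovery rate of 0.05 among 7271 tested (edgeR quasi-likelihood test, 0%), while DESeq2 called 3. At an unadjusted p under 0.05 there were 707 genes (9.72%), 305 higher (4.19%) and 402 lower with anti-VSIG4 (5.53%). Groups did not overlap for 1109 genes (15.3%), 800 of them lower with anti-VSIG4 (11%) and 309 higher (4.25%). Of the fits that left out 1 library, the fit without IgG 1 called 22 genes and the fit without IgG 2 called 1. The genes with the smallest p and members of the lists are given as not passing.

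Cell cycle genes had the smallest p on the lower side. Top2a stood at 72.4, 57.1 and 59.0 CPM in checkpoint-positive cells with anti-VSIG4, against 122, 155 and 209 CPM with IgG (log2 -1.24, SE 0.25, edgeR adjusted p = 0.408). Mki67, the gene of the Ki-67 proliferation antigen, stood at 35.7, 27.4 and 26.1 CPM with anti-VSIG4, against 74.3, 65.8 and 132 CPM with IgG (log2 -1.48, SE 0.30, adjusted p = 0.408). The groups did not overlap for either gene, IgG 3 was the highest for both, and anti-VSIG4 mice lay close together. All 30 proliferation genes tested leaned lower with anti-VSIG4 (median -0.58, against -0.014 over all genes). Of the 30, 11 did not overlap, against 11% of all genes on the lower side. An unadjusted edgeR p under 0.05 was reached by 8, against 5.53% of all genes on the lower side. None passed. Without IgG 3 the median was -0.35 with 26 of 30 lower, and after thinning 5 genes could be tested, with a median of -0.28.

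Il7r, the interleukin-7 receptor of resting and memory T cells, was, with Hbb-bs, among the genes of smallest p on the higher side. It stood at 51.9, 52.4 and 52.1 CPM with anti-VSIG4, against 27.9, 17.8 and 18.4 CPM with IgG, in groups that did not overlap (log2 1.47, SE 0.30, edgeR adjusted p = 0.408). Hbb-bs, a globin gene of red cells, stood at 50.8, 59.5 and 13.9 CPM with anti-VSIG4, against 12.4, 5.58 and 3.35 CPM with IgG. CD8 cells are not known to make globin. The 7 macrophage markers together gave 671, 495 and 439 CPM with anti-VSIG4, against 367, 312 and 162 CPM with IgG, and the 4 red cell globins 121, 120.5 and 50.4 CPM, against 32.5, 6.69 and 7.66 CPM. Their part in the treatment differences was not tested.

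Tox stood at 32.4, 29.0 and 24.3 CPM in checkpoint-positive cells with anti-VSIG4, against 46.4, 69.2 and 143 CPM with IgG (log2 -1.47, SE 0.36, edgeR adjusted p = 0.408). Bach2, a repressor that keeps T cells from terminal differentiation, stood at 46.5, 36.8 and 27.8 CPM, against 99.0, 53.5 and 107 CPM (log2 -1.07, SE 0.30, adjusted p = 0.408). Neither gene overlapped between the groups, and both are long genes whose highest value was in IgG 3. Klf2 and Ccl5 stood higher with anti-VSIG4 without overlap (log2 0.76 and 0.83, adjusted p = 0.455 for both). Ifng stood at 8.65, 35.2 and 31.3 CPM with anti-VSIG4, against 85.1, 50.2 and 43.1 CPM with IgG (log2 -1.08, SE 0.46, adjusted p = 0.496).

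Gzmb, Prf1 and Tcf7 overlapped between the treatments. Gzmb stood at 686, 353 and 452 CPM in checkpoint-positive cells with anti-VSIG4 and at 331, 444 and 432 CPM with IgG (log2 0.43, adjusted p = 0.570). Prf1 averaged 87.2 ± 16.2 CPM with anti-VSIG4 and 122 ± 46.4 CPM with IgG (edgeR adjusted p = 0.636), and Tcf7 averaged 57.3 ± 23.5 and 43.9 ± 30.9 CPM (adjusted p = 0.726) (SD, n = 3 each). Of the cytotoxic list 10 of 12 genes leaned higher with anti-VSIG4 (median 0.38) and of the exhaustion factors 10 of 16 leaned lower (median -0.18). Over all genes tested 48.9% leaned higher, with a median of -0.014. The lean of the cytotoxic list was also present in checkpoint-negative cells, where all 13 genes tested were higher (median 0.28). All 5 T cell genes of the gate leaned higher in checkpoint-positive cells as well (median 0.41). Type I interferon genes of checkpoint-positive cells leaned higher, 22 of 27 with a median of 0.40, but 17 of 29 with a median of 0.08 without IgG 3.

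**Figure D5:**
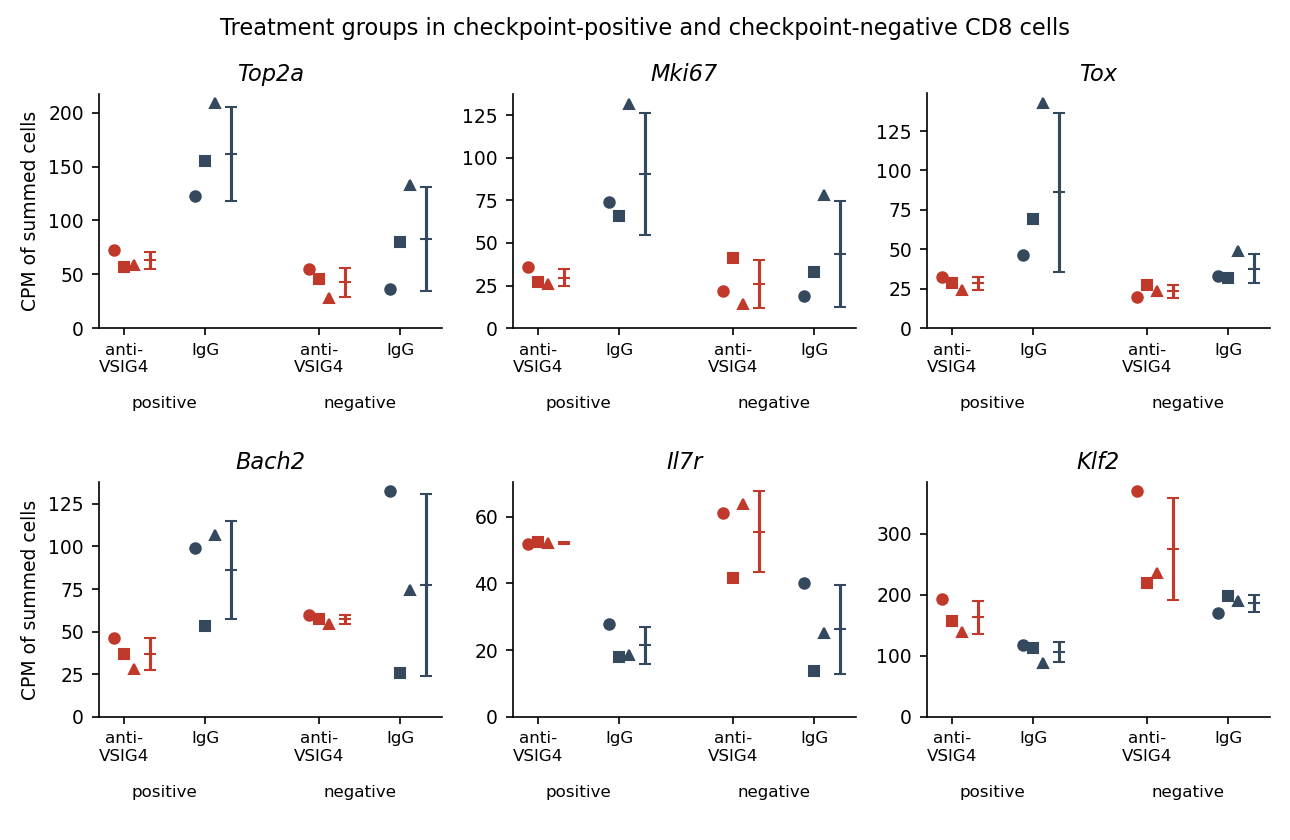
CPM of Top2a, Mki67, Tox, Bach2, Il7r and Klf2 in checkpoint-positive and checkpoint-negative CD8 cells, with anti-VSIG4 left of IgG; points are libraries, bars are means ± SD (n = 3). In checkpoint-positive cells the groups do not overlap for any of the 6 genes, and none passed the false discovery rate. The 6 genes were picked after their values were seen, and 15.3% of all genes tested in these cells did not overlap.

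In checkpoint-negative cells no gene passed either, of 6443 tested (edgeR, 0%; DESeq2 also 0), with 350 at an unadjusted p under 0.05 (5.43%; 2.3% higher and 3.14% lower with anti-VSIG4) and 632 without overlap (9.81%; 3.21% higher and 6.6% lower). The smallest p-values were those of Trerf1, Malat1, Fam174a, Fbxl8 and Smarcc1 (adjusted p = 0.893 for each). Malat1, a long RNA kept in the nucleus, averaged 641 ± 116 CPM with anti-VSIG4 and 1491 ± 447 CPM with IgG. In these cells Top2a averaged 42.8 ± 13.6 CPM with anti-VSIG4 and 83.2 ± 48.1 CPM with IgG, and Mki67 averaged 25.9 ± 14.1 and 43.6 ± 30.8 CPM, with overlap for both. Il7r averaged 55.5 ± 12.2 and 26.2 ± 13.3 CPM without overlap (log2 1.18). The proliferation list leaned lower in 23 of 27 genes (median -0.25).

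Whether the treatment difference itself differed between the 2 states was tested as an interaction, in which a negative value means a lower treatment difference in checkpoint-positive cells. None of 7900 genes passed (edgeR, 0%; DESeq2 also 0), and 400 had an unadjusted p under 0.05 (5.06%; 2.81% positive and 2.25% negative). The interaction was -0.40 for Top2a (SE 0.30), -0.88 for Mki67 (SE 0.39), -0.87 for Tox (SE 0.37) and 0.31 for Il7r (SE 0.37), each with an edgeR adjusted p of 0.972. The smallest p-values were those of Ly6c2 (0.74), Pdlim1 (1.29), Areg (1.80), Ccn1 (2.31) and Sox4 (2.13), all at an adjusted p of 0.290. A difference seen in checkpoint-positive cells was therefore not shown to be theirs alone. UMIs of a variable segment of the T cell receptor beta chain were found in 6 to 88 checkpoint-positive cells per library, too few to describe clones.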

How the data were processed

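Droplet single-cell libraries (DNBelab C TaiM4 V3.0, sequenced on a DNBSEQ-T7, per the labels' protocols) were deposited as raw UMI counts per gene and barcode. The counts were made with PISA 1.0 per the file headers, and the submitters' processing notes name STAR and Seurat 4.11. A genome build and annotation were not given in the sources used here. Barcodes held at least 1000 UMIs. Barcode names are running numbers and cannot show whether libraries share cells.

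Counts of member and comparison cells were summed per library and tested with edgeR 4.0.16 (TMM scaling, filterByExpr, robust quasi-likelihood test, false discovery rate 0.05) under R 4.3.3, with library as a block between states. DESeq2 1.42.0 was an alternative. Shares were compared by exact permutation tests (scipy 1.17.1). In simulated counts of the treatment test in checkpoint-positive cells (7271 genes), 23% of 2-fold and 91% of 4-fold changes were recovered. The simulation gave every gene 1 common spread between mice (biological coefficient of variation 0.263). Recovery of real genes, whose spread differs, can be lower. Gene spans of a mouse reference annotation matched 88.3% of genes and 97.0% of UMIs.

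Members and gene lists were chosen with earlier results of these data known. Genes named are, in each comparison, up to 12 per direction with the largest change past the threshold, at least 20 CPM and the same direction in all 6 libraries, or, where none passed, the 5 with the smallest p (1 of which is not reported here); up to 4 per list with the smallest p; and members of the checkpoint, exhaustion, progenitor, cytotoxic and cytokine lists. Tnfrsf9, Ikzf2, Slamf6, Gzmb, Ifng and Ctla4, which did not pass, were picked from the lists after their values were seen, as were the genes followed across comparisons. Alternatives covered scaling, filtering, depth, gate settings and leaving out each library. Whether the replicate numbers paired the samples is not known, and the main treatment fits used no pairing. No sequences are shown because no result rests on one.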

Additional observations from a re-analysis of the deposited data

Results flagged for a closer look

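The log2 ratio of checkpoint-positive over checkpoint-negative CD8 cells (CPM + 1) was checked in each library for 56 named genes, and in 3 of them 1 library stood apart: the gap to its nearest neighbour, as a share of the range of the 6 libraries, was above Dixon's critical value. Chance alone gives this in about 1 gene in 20. Ubash3b had a ratio of 1.73 in anti-VSIG4 3, against a median of 0.92 in the other 5 libraries. Muc1 had a ratio of -2.20 in IgG 3, against -0.77. Tnfrsf12a had a ratio of -2.13 in IgG 3, against -0.70. The tumour marker list was at 931 CPM in checkpoint-positive cells and 5328 CPM in checkpoint-negative cells of IgG 3; its part in the last 2 values was not tested.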

How the results depend on the processing

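The count of 173 genes that differed between the states became 79 with DESeq2, 352 with no filter on low counts, 80 without cells above the 94th percentile of UMIs, 92 with at least 2 Cd8a or Cd8b1 UMIs and no Cd4, 285 with at least 2 receptor UMIs, 14 of 2963 after thinning to 1000 UMIs (9 of them among the 173) and 3 of 3981 in cells of 1500 to 4000 UMIs (2 of them). Over cells with at most 15% of UMIs in long genes, an alternative chosen after seeing the data, it was 156, with 134 of them among the 173. Leaving out 1 library gave 84 to 181, lowest without IgG 3 (84), IgG 2 (88) and anti-VSIG4 1 (110). Thinning and the UMI window also test fewer genes, the thinned fits also call the receptors again, and the window also holds fewer cells. The cause was otherwise not tested. For the treatment in checkpoint-positive cells the count of 0 became 3 with DESeq2, 99 with no filter and 0 to 22 without 1 library; in checkpoint-negative cells it became 67 with no filter and 0 to 14 without 1 library; for the interaction it became 10 with no filter, 1 after thinning and 0 to 6 without 1 library. A replicate block gave 30 genes in checkpoint-positive and 1 in checkpoint-negative cells. In checkpoint-positive cells, deviations from the group means correlated at 0.238, -0.104 and 0.286 between same-numbered libraries. Between other pairs of libraries they correlated at -0.383 to 0.296. With 3 libraries a group, these values cannot tell whether the numbers pair the mice. The treatment difference in the share of all barcodes, -0.498 points, ran from -1.51 to 0.690 over the fits without 1 library, turning to 0.225 without anti-VSIG4 3 and 0.690 without IgG 3, and turned to 0.245 without cells above 15% long-gene UMIs; that of Tigit ran from -2.78 to 0.390, turning without IgG 3. After thinning, signs turned between the states for Prf1 (-0.196), Gzmb (-0.053), Stmn1 (-0.043) and Irf7 (0.026), and in the interaction for Areg (-0.65), Mki67 (0.57), Top2a (1.06) and Tox (0.40). The interaction of Il7r turned to -0.028 with at least 2 receptor UMIs, and the treatment difference of Mki67 in checkpoint-negative cells to 0.058 without IgG 3 (-1.19 at the other end, without anti-VSIG4 2). Their cause was not tested. Of the values of single genes between the states under alternatives, 560 kept direction and side of the threshold, 187 lost the call, 17 gained it and 4 turned. With 3 mice a group, changes well under 4-fold were often not detectable for the treatment. Larger changes could also be missed, since the simulation behind this gave all genes the same spread.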
